A study of Mus musculus with 12 samples.

Results

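The sortilin family comprises 5 genes, Sorcs1, Sorcs2, Sorcs3, Sort1 and Sorl1, out of 24421 gene symbols counted in mouse Min6 cells, an insulinoma-derived line that makes and secretes insulin. The members were taken by symbol, and the family was chosen by the level of Sorcs2, which showed one of the strongest falls after knockdown of Il22ra1. The change of Sorcs2 itself is therefore given as a description, with no test. Levels are in CPM, gene reads scaled to library size. The 6 sh-Il22ra1 libraries came from Min6 cells of wild-type genotype infected with an adenovirus carrying a hairpin against Il22ra1, and the 6 sh-ctrl libraries, titled GFP, from the same line infected with a control adenovirus. Both groups had the virus for 48 h and 0.3 mM palmitate for 24 h, so no library shows the cells without virus or without the fatty acid. The comparison asks what the interleukin-22 receptor chain Il22ra1 changes in lipid-loaded beta cells.

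Sortilin-family proteins are membrane receptors that share a VPS10 domain in the part facing the lumen or the outside of the cell. They carry cargo between the Golgi, endosomes, lysosomes and the cell surface, through short signals in their tails that bind clathrin adaptors and the retromer. At the surface, sortilin and the SorCS proteins bind proneurotrophins together with the p75 receptor, the product of Ngfr, and SorLA binds the amyloid precursor protein. In fat and muscle, sortilin is a component of the vesicles that hold the insulin-responsive glucose transporter, and Sorcs1 has been linked to diabetes and insulin granules in mice.

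Reads assigned to genes ranged from 14408576 to 15595603 in sh-Il22ra1 and from 13108494 to 15887448 in sh-ctrl libraries. The targeted gene Il22ra1 had 1 to 4 reads per sh-Il22ra1 library and 7 to 20 per sh-ctrl library. Its level was 0.164 CPM ± 0.0873 in sh-Il22ra1 and 0.831 CPM ± 0.256 in sh-ctrl (SD, n = 6 each; exact two-sided permutation p = 0.00216, the smallest that 6 against 6 allow). The beta-cell genes Ins2, Iapp and Ins1 led the beta-cell markers, as the cell label says. The labels do not say whether the libraries of a group came from separate cultures. The p-values therefore set the difference between groups only against the variation among these libraries, which may be technical. In sh-ctrl replicates 1 and 4, 16.3% and 17.3% of reads were not aligned, against 12.8% to 15.2% in the other sh-ctrl libraries and 8.71% to 11.8% in sh-Il22ra1. These 2 libraries were also the lowest of their group for several members, so results that rest on them are given with and without them. Leaving out the lowest sh-ctrl libraries deepens a fall by construction. The values of these members without them therefore describe that dependence and add no support for a fall.

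Per length, Sort1 was the most abundant member in every library of both groups, followed by Sorl1 and then Sorcs2. In RPKM, which is CPM divided by kilobases of exon, Sort1 was at 21.5 ± 0.584 in sh-Il22ra1 and 23.8 ± 3.62 in sh-ctrl (SD, n = 6 each). Sorl1 was at 5.84 RPKM ± 0.380 in sh-Il22ra1 and 8.51 RPKM ± 2.64 in sh-ctrl. Sorcs2 was at 0.172 RPKM ± 0.0508 in sh-Il22ra1 and 1.27 RPKM ± 0.344 in sh-ctrl. The ranges of these 3 genes were apart from each other in both groups. Sorcs1 and Sorcs3 lay lowest, and their ranges overlapped. Sorcs1 was at 0.0484 RPKM ± 0.0268 in sh-Il22ra1 and 0.0510 RPKM ± 0.0186 in sh-ctrl. Sorcs3 was at 0.0234 RPKM ± 0.0154 in sh-Il22ra1 and 0.0619 RPKM ± 0.0219 in sh-ctrl. When the longest coding transcript was used as the length, Sorcs1 stood above Sorcs3 in sh-ctrl too, at 0.0979 against 0.0784 RPKM, and the order of the other members was the same.

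**Figure D1:**
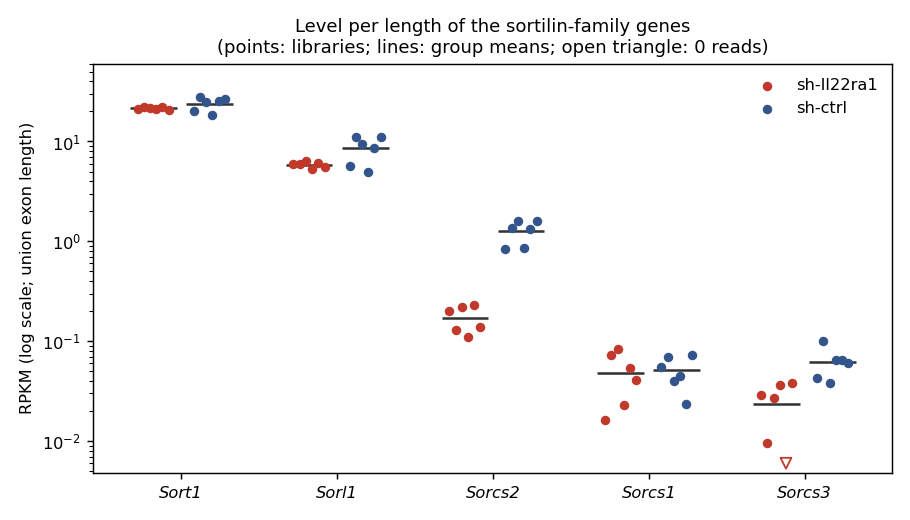
Level per length of each member in RPKM on a log axis, with sh-Il22ra1 left of sh-ctrl for each gene, points for libraries, lines for group means (n = 6) and an open triangle for the library with 0 reads. Sort1 lies near 21.5 and 23.8 RPKM, Sorl1 below it, and the Sorcs2 means of 0.172 and 1.27 RPKM are far apart.

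Sorcs2 encodes a receptor that binds proneurotrophins and is studied mainly in neurons. The gene (ENSMUSG00000029093.14) is annotated on the minus strand of chromosome 5, positions 36017180 to 36398139 of GRCm38, and the annotation used here gives it 5 transcripts and no exon bases shared with another gene. Sorcs2 reads numbered 15 to 31 per sh-Il22ra1 library (137 in all) and 96 to 230 per sh-ctrl library (993 in all). In CPM the lowest, median and highest values were 0.976, 1.51 and 2.02 in sh-Il22ra1, and 7.39, 11.9 and 14.2 in sh-ctrl. The highest sh-Il22ra1 library, replicate 5, was below the lowest sh-ctrl library, replicate 1. The mean level in sh-Il22ra1 was 13.6% of that in sh-ctrl, a ratio in CPM of 1.52 ± 0.447 to 11.1 ± 3.03 (SD, n = 6 each), and the fitted log2 fold change was -2.88 (SE 0.212).

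In order of size, this was the second fall of all 13102 genes tested and the first of the 10624 that averaged 5 CPM or more. The family was chosen for this fall, so the rank restates that choice. Sorcs2 reached the 5 CPM average only through sh-ctrl, at 11.1 CPM, against 1.52 CPM in sh-Il22ra1. Just after Sorcs2 among the 10624 genes came Cyb5r3 at -2.82 and Rab2b at -2.72. The sh-ctrl libraries themselves fell into 2 levels for Sorcs2: replicates 1 and 4 were at 7.39 and 7.49 CPM, and the other 4 between 11.8 and 14.2 CPM. Without replicates 1 and 4 the log2 fold change of Sorcs2 was -3.11 (SE 0.159). Over the other settings tried it lay between -2.98 and -2.67.

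Sorl1 encodes SorLA, a receptor that moves the amyloid precursor protein and other cargo from endosomes back to the Golgi. It fell in sh-Il22ra1, but its groups overlapped. Its minus-strand gene spans positions 41964720 to 42124297 of chromosome 9. Its lowest, median and highest levels were 59.8, 67.1 and 71.8 CPM in sh-Il22ra1, and 56.6, 102 and 127 CPM in sh-ctrl. The sh-Il22ra1 libraries were close together, with a coefficient of variation of 6.51%, while the sh-ctrl libraries varied by 31.0%. The sh-ctrl libraries at 64.9 and 56.6 CPM were replicates 1 and 4, inside or below the sh-Il22ra1 range, and the other 4 lay between 97.5 and 127 CPM, above it. The log2 fold change was -0.55 (SE 0.154), with an adjusted p of 0.00604 (edgeR's quasi-likelihood test, Benjamini-Hochberg adjustment over all tested genes). Over the other settings the adjusted p by edgeR, DESeq2 or limma-voom lay between 5.66e-11 and 0.0169. The smallest came without sh-ctrl replicates 1 and 4, the 2 lowest of their group for this gene. A two-sided exact permutation test of CPM for this gene alone gave p = 0.0563.

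Without sh-ctrl replicates 1 and 4 the log2 fold change of Sorl1 was -0.80 (SE 0.0691). With each library corrected for transcript length and GC content it was -0.32 (SE 0.0785, edgeR adjusted p = 0.00162). The direction and the edgeR call of Sorl1 were therefore shared by these settings, while its size moved by more than 1.5 times in the last of them. Its annotated exons share 1.63% of their bases with a predicted gene, Gm16214.

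Sort1 encodes sortilin, which carries progranulin and lysosomal precursors and is a receptor for neurotensin. Its plus-strand gene spans positions 108284082 to 108361511 of chromosome 3 and shares 4.47% of its exon bases with the predicted gene Gm12523. Its lowest, median and highest levels were 158, 163 and 169 CPM in sh-Il22ra1, and 140, 190 and 209 CPM in sh-ctrl. The coefficient of variation was 2.72% in sh-Il22ra1 and 15.2% in sh-ctrl. As for Sorl1, sh-ctrl replicates 1 and 4 were the lowest of their group, at 153 and 140 CPM, below every sh-Il22ra1 library, and the other 4 were at 189 to 209 CPM, above every sh-Il22ra1 library. Over all 12 libraries the log2 fold change of Sort1, -0.15 (SE 0.0820), missed the threshold of 0.05 (edgeR adjusted p = 0.135).

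Whether Sort1 passed depended on which sh-ctrl libraries were kept. Without sh-ctrl replicate 4 the log2 fold change was -0.23 (SE 0.0653, edgeR adjusted p = 0.00582), and without replicates 1 and 4 together it was -0.29 (SE 0.0512, edgeR adjusted p = 1.57e-05). Without replicate 1 alone it was -0.19 and did not pass (edgeR adjusted p = 0.0513). Replicates 1 and 4 were the lowest sh-ctrl libraries for Sort1, so leaving them out deepens its fall by construction. These p-values therefore add no support for a fall. After the length and GC correction, with all libraries kept, the log2 fold change was -0.01 (SE 0.0419, edgeR adjusted p = 0.859). Over all the settings tried the edgeR, DESeq2 or limma-voom adjusted p of Sort1 ran from 1.57e-05 to 0.859. The part of alignment rate, length or GC content in the values of replicates 1 and 4 was not tested.

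**Figure D2:**
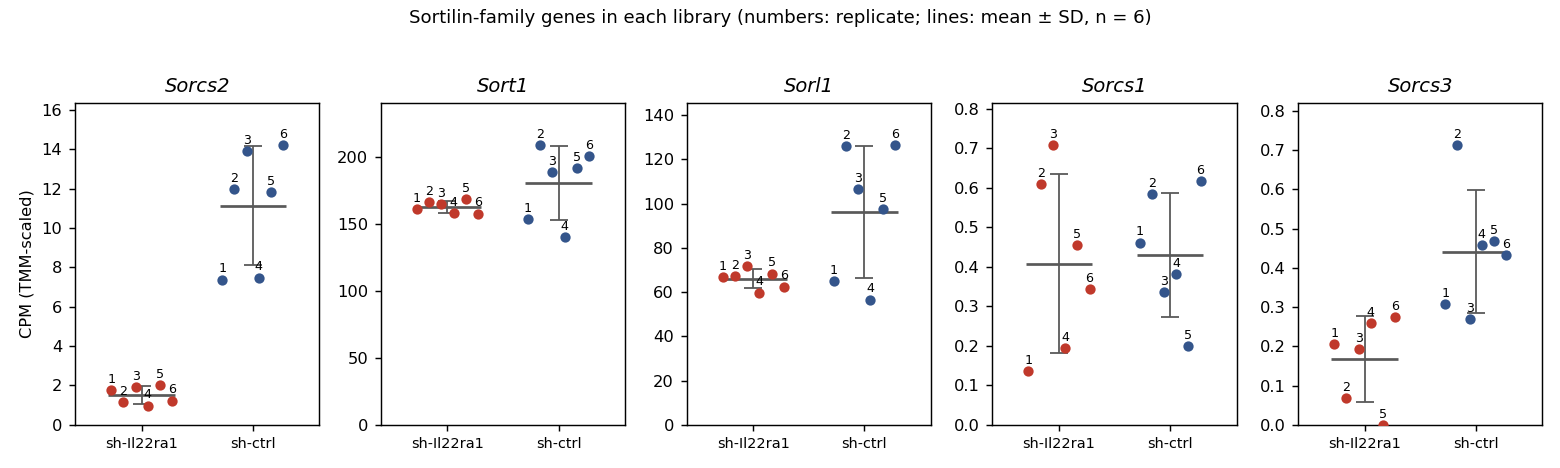
CPM of each member in each library, with sh-Il22ra1 left of sh-ctrl, replicate numbers beside the points, and mean ± SD (n = 6) as lines, on separate axes that start at 0. The groups do not overlap for Sorcs2, and sh-ctrl replicates 1 and 4 are the lowest of their group for Sorcs2, Sort1 and Sorl1, at or below the sh-Il22ra1 range for Sort1 and Sorl1.

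The 3 tested members shared this order in sh-ctrl: replicates 1 and 4 were the 2 lowest libraries for Sorcs2, Sort1 and Sorl1. The same held for 21.3% of the 13102 genes tested. Over all 12 libraries, with group means subtracted, log2 CPM of Sort1 and Sorl1 had a Pearson r of 0.98, Sorcs2 and Sorl1 an r of 0.77, and Sorcs2 and Sort1 an r of 0.72. These are descriptions, since the points share their libraries. Of the 2 tested members other than Sorcs2, 1 was called lower and none higher, where 51.9% of all tested genes were called, 26.5% lower and 25.4% higher. Without sh-ctrl replicates 1 and 4 both were called lower, where 31.3% of the 13255 genes then tested were called lower and 28.5% higher. Those 2 libraries were the lowest of sh-ctrl for both genes, so nothing is read from these 2 calls. Sorcs2 alone had groups that did not overlap, as did 14.6% of all tested genes in the downward direction, and nothing is read from these shares for Sorcs2.

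Sorcs1 and Sorcs3 had too few reads for the test across genes. Both are on chromosome 19, Sorcs3 at 48206025 to 48805505 (plus strand) and Sorcs1 at 50143299 to 50678646 (minus strand), and both encode receptors best known from the brain. Sorcs1 had 2 to 11 reads per sh-Il22ra1 library, 37 in all, and 3 to 10 per sh-ctrl library, 38 in all. Its lowest, median and highest levels were 0.137, 0.399 and 0.709 CPM in sh-Il22ra1 and 0.2004, 0.422 and 0.618 CPM in sh-ctrl, fully overlapping. No difference was detectable at this depth: the ratio of sh-Il22ra1 to sh-ctrl was 0.945 (95% interval 0.584 to 1.53, for counting error alone), and the exact two-sided permutation p was 0.848.

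Sorcs3 was lower in sh-Il22ra1, on very few reads. It had 0 to 4 reads per sh-Il22ra1 library, 15 in all, and 4 to 11 per sh-ctrl library, 39 in all. The library with 0 reads, sh-Il22ra1 replicate 5, could hold up to about 0.2 CPM unseen, the level of 3 reads, which is 0.193 to 0.206 CPM across the sh-Il22ra1 libraries. The lowest, median and highest levels were 0, 0.199 and 0.274 CPM in sh-Il22ra1 and 0.269, 0.446 and 0.713 CPM in sh-ctrl. The highest sh-Il22ra1 library was just above the lowest sh-ctrl library, replicate 3, and the groups otherwise did not overlap. The ratio was 0.373 (95% interval 0.191 to 0.693, likewise for counting error), and the exact two-sided permutation p was 0.00433. In an edgeR fit with no filter on low counts, Sorcs3 had an adjusted p of 0.0342 and Sorcs1 one of 0.909 over 19024 genes.

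Ligands and cargo of the family are the proneurotrophins, other secreted factors, lipoprotein proteins and lysosomal enzymes. Of 25 listed genes 20 were tested, and in sh-Il22ra1 10 fell, 2 rose and 8 did not pass, where 51.9% of all tested genes were called, 26.5% lower and 25.4% higher. The median log2 fold change of the list was -0.33, beside -0.0043 for all genes tested. Lpl, the lipoprotein lipase, which sortilin and SorLA bind, fell to 4.98 CPM ± 1.52 in sh-Il22ra1, against 11.9 CPM ± 2.19 in sh-ctrl (SD, n = 6 each; log2 fold change -1.25, SE 0.166).

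App, the amyloid precursor protein gene and the best known cargo of SorLA, fell to 412 CPM ± 37.6 in sh-Il22ra1, against 561 CPM ± 15.6 in sh-ctrl (log2 fold change -0.45, SE 0.0610). Gaa, the lysosomal acid alpha-glucosidase, fell to 619 CPM ± 20.3 in sh-Il22ra1, against 1089 CPM ± 70.0 in sh-ctrl (-0.82, SE 0.0565). These 3 genes were named for their small p. Their groups did not overlap, and their edgeR adjusted p was at most 7.41e-06. Of the 20 tested genes of the list, 6 were lower and 1 higher without overlap. Among all tested genes these shares were 14.6% and 13.5%. The next 4 genes were chosen after their values were seen. Smpd1, the acid sphingomyelinase gene, rose to 196 CPM ± 9.24 in sh-Il22ra1, against 152 CPM ± 8.83 in sh-ctrl (0.37, SE 0.0550, edgeR adjusted p = 2.03e-05). Bdnf, a neurotrophin gene, of whose exon bases 14.4% are shared with Gm45346, fell on low levels of 0.720 CPM ± 0.122 in sh-Il22ra1 and 1.81 CPM ± 0.651 in sh-ctrl (-1.31, SE 0.261, edgeR adjusted p = 0.000398). The sortilin cargo genes Grn (0.04, SE 0.0605) and Psap (0.02, SE 0.0529), progranulin and prosaposin, did not pass.

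Co-receptors and surface partners are receptors that bind ligands together with the family. Of 20 listed, 18 were tested, 10 fell, none rose and 8 did not pass, beside 26.5% lower and 25.4% higher among all tested genes. The median log2 fold change of the list was -0.42. Without sh-ctrl replicates 1 and 4, 12 fell and none rose, beside 31.3% lower and 28.5% higher among all genes then tested. After the length and GC correction 9 fell and 2 rose, beside 3767 lower and 3715 higher of all 13102 genes tested. Ngfr, which encodes p75, the partner of sortilin and the SorCS proteins for proneurotrophins, fell to 60.8 CPM ± 6.28 in sh-Il22ra1, against 87.9 CPM ± 8.71 in sh-ctrl (-0.53, SE 0.0783).

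Ntrk3, which encodes a neurotrophin receptor kinase, and Cntfr, the ciliary neurotrophic factor receptor gene, fell too. Ntrk3 was at 2.60 CPM ± 0.761 in sh-Il22ra1 and 6.92 CPM ± 1.26 in sh-ctrl (SD, n = 6 each; log2 fold change -1.41, SE 0.177). Cntfr was at 54.9 CPM ± 2.09 in sh-Il22ra1 and 168 CPM ± 13.3 in sh-ctrl (-1.61, SE 0.0614). Ngfr, Ntrk3 and Cntfr were named for their small p. Their groups did not overlap, and their edgeR adjusted p was at most 1.74e-05. Of the 18 tested genes of the list, 4 were lower and 0 higher without overlap, beside 14.6% and 13.5% of all tested genes.

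Adaptors that bind sortilin-family tails, clathrin and the retromer moved in both directions. Of 37 listed genes 36 were tested, and 9 fell, 16 rose and 11 did not pass (26.5% lower and 25.4% higher among all tested genes), at a median log2 fold change of 0.17. Among medium chain genes of clathrin adaptors, Ap1m1 and Ap2m1 fell, while Ap1m2, the other AP-1 medium chain gene, named after its values were seen, rose (0.35, SE 0.0618, edgeR adjusted p = 0.000122). Ap1m1, of the Golgi and endosome adaptor AP-1, was at 33.7 CPM ± 3.33 in sh-Il22ra1 and 102 CPM ± 4.65 in sh-ctrl (-1.61, SE 0.0682). Ap2m1, its counterpart in the endocytic adaptor AP-2, was at 351 CPM ± 17.6 in sh-Il22ra1 and 793 CPM ± 35.6 in sh-ctrl (-1.18, SE 0.0547). Pacs1, a cytosolic protein that sorts cargo to the Golgi and binds the SorLA tail, was at 20.3 CPM ± 2.15 in sh-Il22ra1 and 62.6 CPM ± 7.98 in sh-ctrl (-1.63, SE 0.0916). Snx3, a sorting nexin that works with retromer, was at 106 CPM ± 5.93 in sh-Il22ra1 and 237 CPM ± 19.7 in sh-ctrl (-1.17, SE 0.0632).

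In Ap1m1, Ap2m1, Pacs1 and Snx3, also named for their small p, the groups did not overlap, with edgeR adjusted p of at most 9.76e-11. Of the 36 tested genes of this list, 5 were lower and 11 higher without overlap, beside 14.6% and 13.5% of all tested genes. The retromer and GGA genes were picked for their role after their values were seen. Of the retromer core, Vps35 fell (log2 fold change -0.25), while Vps29 (0.26), Vps26b (0.22) and Vps26a (0.23) rose, with SEs of 0.0698 to 0.0855. Of the GGA adaptors, which bind the tails of sortilin and SorLA, Gga3 (0.70) and Gga2 (0.36) rose and Gga1 fell (-0.22), with SEs of 0.0570 to 0.0712. The calls on Vps29 and Gga1 ended after the length and GC correction (edgeR adjusted p = 0.139 and 0.0932). The call on Vps26b ended without sh-ctrl replicates 1 and 4 (edgeR adjusted p = 0.0635). The call on Vps26a ended without any of sh-Il22ra1 replicates 1 and 3 and sh-ctrl replicates 2, 3 and 6 (edgeR adjusted p up to 0.0974).

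**Figure D3:**
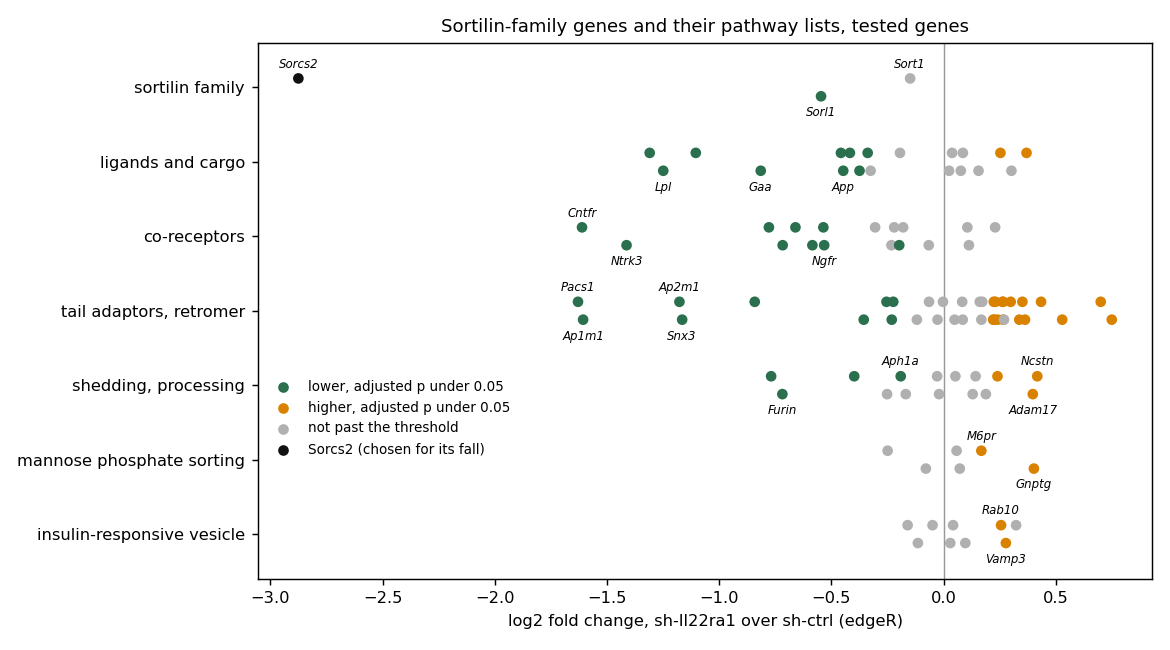
Log2 fold change of sh-Il22ra1 over sh-ctrl (edgeR) for the tested genes of the family and for genes reported here of 6 pathway lists, coloured by call and direction, with the genes named by rule labelled. Called co-receptors all lie left of 0, down to Cntfr at -1.61, while tail adaptors lie on both sides.

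Proteases cut the receptors' propeptides and shed their outer parts. Of 17 listed processing genes 15 were tested, and 4 fell, 3 rose and 8 did not pass (51.9% called among all tested genes), at a median log2 fold change of -0.02. Furin, the convertase that removes the propeptide of sortilin and of proneurotrophins, fell to 72.0 CPM ± 3.54 in sh-Il22ra1, against 118 CPM ± 14.4 in sh-ctrl (-0.72, SE 0.0735). Adam17, the main sheddase of the family, rose to 23.1 CPM ± 1.13 in sh-Il22ra1, against 17.5 CPM ± 0.994 in sh-ctrl (0.40, SE 0.0705). Among gamma-secretase subunit genes, Ncstn rose (0.42, SE 0.0742) and Aph1a fell (-0.19, SE 0.0547). Aph1a shares 12.9% of its exon bases with Car14. The edgeR adjusted p of these 4 genes was at most 0.00677. After the length and GC correction 5 genes of the list were higher and 4 lower. Of all 13102 genes tested, 3715 were then higher and 3767 lower.

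Of 6 genes of other receptor sorting to lysosomes, mainly of the mannose phosphate route, 2 rose, none fell and 4 did not pass (51.9% called among all tested genes). M6pr, the cation-dependent mannose phosphate receptor, was at 277 CPM ± 12.4 in sh-Il22ra1 and 247 CPM ± 10.01 in sh-ctrl (SD, n = 6 each; log2 fold change 0.17, SE 0.0519, edgeR adjusted p = 0.0112). This call ended after the length and GC correction (0.07, edgeR adjusted p = 0.131). Gnptg, a subunit of the enzyme that adds the mannose phosphate tag, rose (0.40, SE 0.0625), but shares 49.5% of its exon bases with Unkl, so its reads are uncertain. Without sh-ctrl replicates 1 and 4, 2 genes of this list fell and 2 rose, beside 31.3% lower and 28.5% higher among all genes then tested.

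Of 9 tested genes of the insulin-responsive vesicle, of 10 listed, 2 rose, none fell and 7 did not pass (51.9% called among all tested genes). Vamp3, a vesicle SNARE, was at 65.4 CPM ± 5.16 in sh-Il22ra1 and 54.0 CPM ± 4.46 in sh-ctrl (SD, n = 6 each; log2 fold change 0.28, SE 0.0702). Rab10, a GTPase of these vesicles in fat cells, was at 141 CPM ± 12.0 in sh-Il22ra1 and 118 CPM ± 10.1 in sh-ctrl (0.26, SE 0.0687). Both had overlapping groups and an edgeR adjusted p of at most 0.00442. After the length and GC correction the log2 fold change of Vamp3 was 0.17, and the gene still passed (edgeR adjusted p = 0.0116). Without sh-ctrl replicate 4, alone or together with replicate 1, and after the length and GC correction, 1 gene of this list fell. Among all tested genes, 3970 of 13176 were lower without replicate 4, and 31.3% without replicates 1 and 4. After the length and GC correction 3767 of 13102 were lower.

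Genes near Sorcs2 on chromosome 5 moved in both directions. Sorcs2 was chosen for its large fall, so the size of its change is not compared with theirs. Afap1, an actin filament-associated protein gene whose end lies 13.3 kb from Sorcs2, was at -0.19 on the log2 scale (SE 0.119), not past the threshold. Tada2b (0.05, SE 0.109) did not pass either, Sh3tc1 fell (-0.81, SE 0.240), and Grpel1 (0.47, SE 0.0903) and 2210406O10Rik (1.19, SE 0.139) rose. Around Sorl1, the nearest tested genes were Sc5d, Tbcel and Arhgef12 on 1 side and Ubash3b, Hspa8 and 1700110K17Rik on the other. Arhgef12, 840 kb away, fell (-0.43, SE 0.128), 1700110K17Rik rose (0.81, SE 0.183), and the other 4 did not pass. The edgeR adjusted p of the called neighbours was at most 0.00865. Among all tested genes 51.9% were called, 26.5% lower and 25.4% higher, and nothing is read from these calls about either neighbourhood.

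The genes whose log2 CPM over the 12 libraries was most like that of Sorcs2 were Fermt2, Eif4b and Sepn1, with Pearson r of 0.991, 0.988 and 0.988. With group means subtracted they were Ube4b, Kcnma1 and Hlcs (0.971, 0.959 and 0.940). For Sort1 the most alike over all libraries were Cyfip2, Hipk1 and Ipo9 (0.972, 0.966 and 0.964), and for Sorl1 Hcfc1, Slc23a2 and Gbf1 (0.989, 0.989 and 0.988). With group means subtracted, Spred2 was the most like both Sort1 (0.985) and Sorl1 (0.990), followed by Mbp and Slc7a8 for Sort1 (0.984 and 0.983) and by Il6st and Usp22 for Sorl1 (0.986 and 0.985). These likenesses describe shared libraries and were not tested.

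Of the 5 marker lists of other cell types, the summed levels of 3 did not overlap between the groups and those of 2 did. Among single tested genes, 14.6% were lower and 13.5% higher without overlap, and a sum can rest mostly on 1 gene. Nothing is read from the count of lists. Summed over a list, fibroblast and stellate markers were at 2.02 to 3.29 CPM in sh-Il22ra1 and 4.64 to 9.93 CPM in sh-ctrl, with 8 of 10 under 1 CPM. Leukocyte and endothelial markers were at 9.02 to 11.5 CPM in sh-Il22ra1 and 21.2 to 29.8 CPM in sh-ctrl, with 6 of 8 under 1 CPM. Most of this difference was Cd68, the highest, with means of 6.17 CPM in sh-Il22ra1 and 22.1 CPM in sh-ctrl. Pecam1 went the other way, at 3.47 CPM in sh-Il22ra1 and 2.77 CPM in sh-ctrl, not past the threshold. Other islet cell markers were at 146 to 159 CPM in sh-Il22ra1 and 245 to 296 CPM in sh-ctrl, nearly all of it Gcg, with 7 of 9 under 1 CPM and Hhex without a read. Acinar and duct markers were at 209 to 239 CPM in sh-Il22ra1 and 146 to 216 CPM in sh-ctrl, mostly Krt7, and the acinar genes Prss2, Amy2a5 and Ptf1a had no read. Neuron and glia markers, many of which beta cells also express, were at 1114 to 1187 CPM in sh-Il22ra1 and 1125 to 1281 CPM in sh-ctrl, with 5 of 13 under 1 CPM. Beta-cell markers were at 65395 to 74553 CPM in sh-Il22ra1 and 72841 to 109317 CPM in sh-ctrl. The part of these cell types in the members' values was not tested, and in bulk RNA fewer cells of a type and less RNA per cell cannot be told apart.

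**Figure D4:**
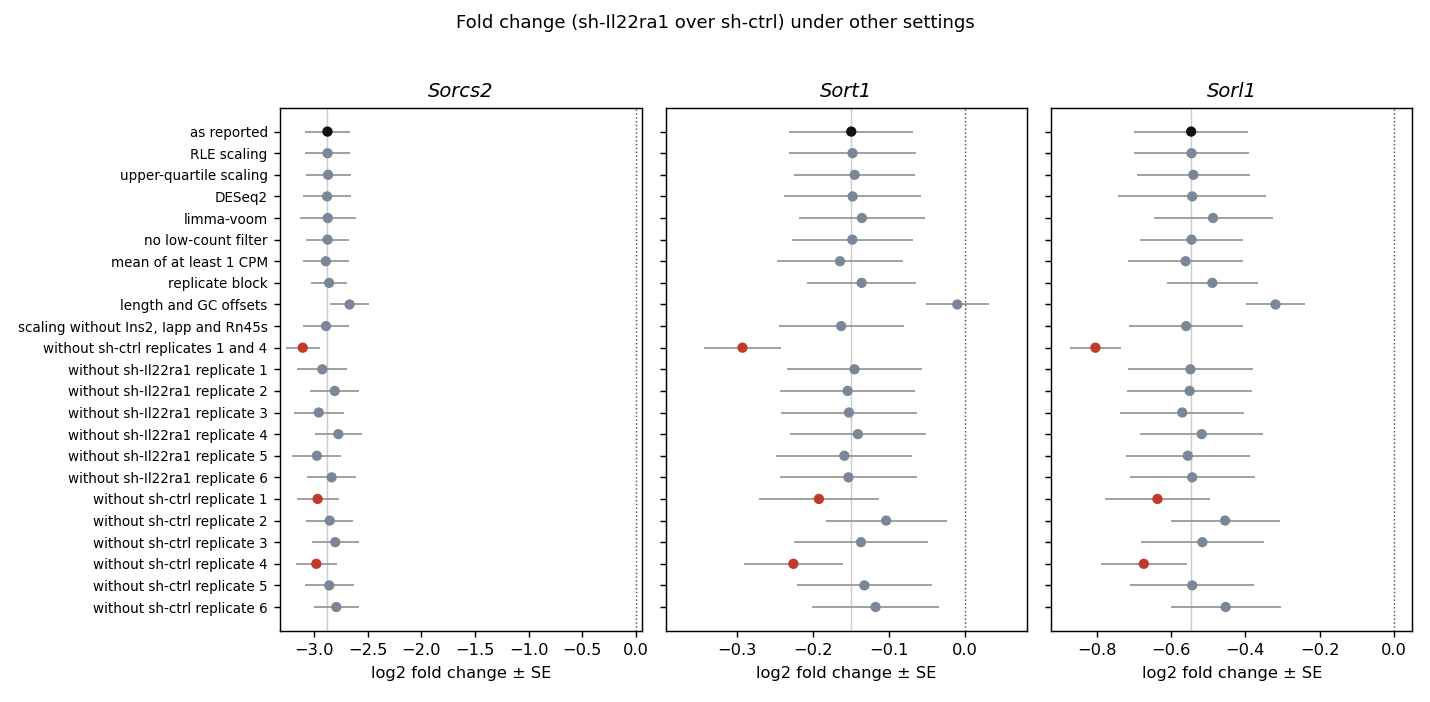
Log2 fold change ± SE of the 3 tested members, sh-Il22ra1 over sh-ctrl, under each setting, with the reported value in black and settings that leave out sh-ctrl replicate 1 or 4 in red. All values are below 0, Sort1 runs from -0.29 to -0.01, Sorl1 from -0.80 to -0.32 and Sorcs2 from -3.11 to -2.67.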

How the data were processed

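Total RNA of 12 Min6 samples was made into VAHTS Universal V6 libraries and sequenced as paired ends, per the labels' protocols. The submitters' processing notes name HISAT2 2.0.5, HTSeq and mm10. The annotation and strand setting of the counting were not given in the sources used here, and counts per gene do not separate isoforms. The authors deposited whole-number read counts per gene symbol for each sample, with 5 rows of unassigned reads (23.5% to 31.7% of a file), which were left out. Groups came from the titles, since the numeral that ends the gene name in the treatment label climbs with the replicate in sh-Il22ra1.

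Counts were fitted in R 4.3.3 with edgeR 4.0.16: filterByExpr (minimum count 10, minimum total 15), TMM scaling, quasi-likelihood test, Benjamini-Hochberg adjustment over 13102 genes, threshold 0.05. The SE is the log2 fold change divided by the square root of F. Genes under the filter had exact permutation tests. The script was tested on simulated data. Length, GC content and positions came from GENCODE M21 on GRCm38, which matched all but 394 of 24421 symbols (651 by synonym). RPKM uses union exon length. Alternatives used DESeq2 1.42.0 and limma 3.58.1 among others. Members, gene lists, tests and alternatives were chosen with earlier results of these data known. Named by rule were the members, Il22ra1, up to 4 called genes of each pathway list with the smallest p, the 3 genes most like each tested member with a mean of at least 5 CPM (log2 CPM, prior count 2), and the nearest 3 tested genes on each side of called members. A few genes that this rule named are not reported here; they stay in every fit and list count. No library was treated as a duplicate: the closest pair within a group had a chi-square over its degrees of freedom of 3.95.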

Additional observations from a re-analysis of the deposited data

Results flagged for a closer look

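Among 72 groups of 6 libraries (the members, Il22ra1 and the named pathway genes in each group), 3 held a library far from the rest; chance alone gives about 1 in 20 groups. Lpl was at 8.01 CPM in sh-Il22ra1 replicate 1, and at 4.75 CPM or less in the other sh-Il22ra1 libraries. Vps35 was at 85.8 CPM in sh-Il22ra1 replicate 1, and at 71.4 CPM or less in the others of that group. Gaa was at 955 CPM in sh-ctrl replicate 1, and at 1080.2 CPM or more in the other sh-ctrl libraries. None of the 5 sortilin-family genes had such a library.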

How the results depend on the processing

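Over 22 alternatives (scaling, tool, filter, replicate block, length and GC correction, libraries left out), genes called higher ran from 2881 to 3781 and genes called lower from 3239 to 4146. Leaving out 1 library at a time gave 2881 to 3521 higher and 3239 to 3970 lower. Sorl1 kept its direction and its call under all 22. Sorcs2 kept its direction too, but it was chosen for its fall in these libraries, so nothing is read from this. Sort1 became a call without sh-ctrl replicate 4 or without replicates 1 and 4 (-0.29), its 2 lowest sh-ctrl libraries. Its log2 fold change ran from -0.23 to -0.10 with 1 library left out. The log2 ratio of Sorcs3 ran from -1.62 to -1.14 with exact permutation p up to 0.0130, and that of Sorcs1, never a call, from -0.30 to 0.11, changing sign without sh-Il22ra1 replicate 1 or 4 or sh-ctrl replicate 2 or 6. DESeq2, limma-voom, the 1 CPM filter, the block and the length and GC correction were not run for these 2 genes. With coding transcript length, the levels in RPKM moved beyond 1 SD for Sorcs2 (0.266 in sh-Il22ra1, 1.95 in sh-ctrl), Sorcs1 (0.0928 in sh-Il22ra1, 0.0979 in sh-ctrl) and Sort1 in sh-Il22ra1 (23.8). Of 660 values of the 30 other named genes, 651 kept direction and side of the threshold, 9 lost the call and 0 reversed. Replicate numbers recur in both groups, and same-numbered libraries deviated together only weakly (r from -0.03 to 0.23, own number best for 2 of 6). These values do not settle whether the numbers pair samples. With the replicate block, 3463 genes were higher and 3566 lower, Sort1 gave -0.14 (SE 0.0715) and Sorl1 -0.49 (SE 0.123). Sorcs1 and Sorcs3, at 15 to 39 reads per group, are limited by depth.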
